A study of Mus musculus with 4 samples.

Results

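D-type cyclins, the kinases CDK4 and CDK6 and the INK4 inhibitors form the switch that lets a resting cell enter the cell cycle. A D-type cyclin, made in answer to growth signals, binds CDK4 or CDK6, and the active kinase phosphorylates the retinoblastoma protein, which frees E2F factors to switch on genes of DNA replication. The INK4 proteins bind CDK4 and CDK6 directly and keep D-type cyclins from activating them. In mouse β-cells cyclin D2 and CDK4 are known to be needed for postnatal growth of the β-cell mass, and p16INK4a, a product of Cdkn2a, accumulates with age and restrains β-cell division.

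The 9 genes of this switch were taken by symbol from a count table of 23420 genes, and all 9 had a row. They are the D-cyclins Ccnd1, Ccnd2 and Ccnd3, the kinase genes Cdk4 and Cdk6, and the inhibitor genes Cdkn2a, Cdkn2b, Cdkn2c and Cdkn2d. RNA was sequenced from sorted mouse pancreatic β-cells that survived ablation, in 2 libraries labelled Bmal1 KO and 2 labelled Bmal1+/-, the heterozygous (Het) genotype. Mice of both labels carried DTA, the gene of a cell-killing toxin chain, and received doxycycline for 10 days to induce the ablation. Bmal1 is the common name of Arntl, whose protein drives the circadian clock together with CLOCK. The labels give neither the age or sex of the mice, nor the promoter behind DTA, nor the way Bmal1 was removed, nor whether replicate libraries stand for separate animals. The p-values therefore cover only the spread between replicate libraries, which could be technical in part or whole.

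The libraries held 31056116 to 38020488 counts. Values are CPM, counts scaled to a common library size by the TMM method, as mean ± SD with n = 2 per label, and tests are edgeR's 2-sided quasi-likelihood test with Benjamini-Hochberg adjustment over 14649 genes at a threshold of 0.05. A fold change is that of the KO-labelled libraries over the Het-labelled ones. Arntl itself was at 75.8 and 65.6 CPM in KO-labelled libraries, against 23.0 and 15.0 CPM in Het-labelled ones, so its RNA goes against the label, and for that reason each group keeps the name its label gives. Whole-gene counts do not show whether a deleted exon is missing. Of 8 β-cell markers all were present in every library, and they summed to 272780 and 233860 CPM in KO-labelled libraries, against 215010 and 273950 CPM in Het-labelled ones. By edgeR 1 of the 8 fell and 0 rose. By DESeq2 2 were lower and 0 higher. Over all genes, 562 of 14816 were lower and 624 higher by DESeq2. By edgeR 2471 of 14649 had an unadjusted p under 0.05. The median log2 fold change of the 8 was -0.37. Of them 5 were lower without overlap, where 23.8% of all genes tested were lower and 25.3% higher without overlap. The one that fell by edgeR was Ucn3, a marker of mature β-cells, at 52.9 and 89.1 CPM in KO-labelled libraries, against 270 and 314 CPM in Het-labelled ones (log2 fold change -2.04, edgeR adjusted p = 0.0160). Of 9 fibroblast, mural and endothelial markers tested, 3 were higher and 0 lower in KO-labelled libraries, with summed levels over the 12 listed of 139 and 364 CPM, against 58.4 and 18.6 CPM in Het-labelled ones, where Pdgfra was at 0 in both. By DESeq2 5 were higher and 0 lower, and 6 of the 9 had an unadjusted p under 0.05 by edgeR. The 10 immune markers summed to 273 and 954 CPM in KO-labelled libraries and to 304 and 361 CPM in Het-labelled ones, with 0 of 9 tested past the threshold by edgeR, 2 of them at an unadjusted p under 0.05 and 1 past it by DESeq2. The 7 markers of other islet endocrine cells summed to 4174 and 8748 CPM in KO-labelled libraries, against 3626 and 3387 CPM in Het-labelled ones, with 1 of 6 tested higher and 0 lower. By DESeq2 3 were higher and 0 lower, and 3 of the 6 had an unadjusted p under 0.05 by edgeR. The 10 acinar and duct markers summed to 458 and 430 CPM in KO-labelled libraries, against 593 and 670 CPM in Het-labelled ones, most of it Krt7, with Amy2a5 at 0 in all libraries. The sum was lower through Krt7 (log2 fold change -0.68), whereas the other 6 of the 7 tested had a higher level in KO-labelled libraries and the median log2 fold change was 1.75. Of the 7, 0 passed by edgeR and 4 had an unadjusted p under 0.05, and by DESeq2 3 were higher and 1 lower. The part of these other cells in the results below was not tested.

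Of the 8 members tested, 2 fell in KO-labelled libraries and 0 rose. Over all genes tested, 1.34% fell and 1.20% rose. Cdkn2a was below the filter on low counts and was not tested. The libraries of the labels did not overlap for 5 of the 8 members, all 5 lower in KO-labelled libraries, where 23.8% of all genes tested were lower and 25.3% higher without overlap. The median log2 fold change of the 8 members was -0.59, against 0.024 over all genes tested. Cdkn2c and Cdkn2d lay furthest below 0, and Cdk4 and Cdkn2b nearest to it.

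**Figure D1:**
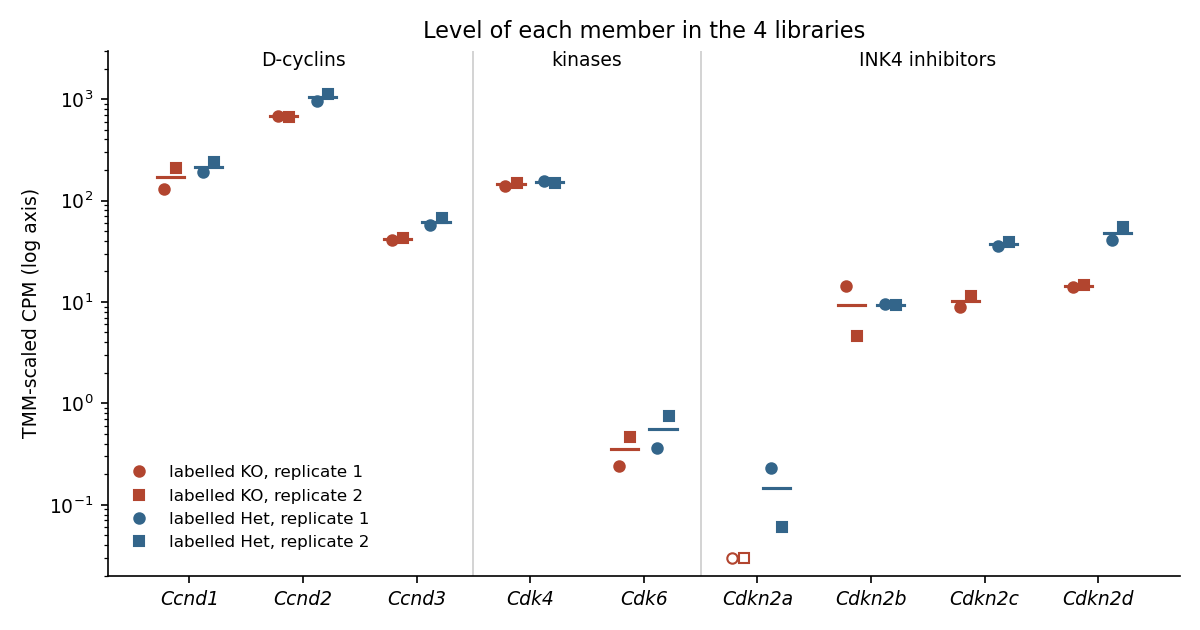
TMM-scaled CPM on a log axis for the 9 genes, with 1 point per library and a bar at the mean of the 2 libraries of a label; open symbols at the bottom stand for 0 counts. Cdkn2c and Cdkn2d lay at 9.01 to 14.6 CPM in KO-labelled libraries and at 35.7 to 54.3 CPM in Het-labelled ones, while Cdk4 lay at 141 to 156 CPM in all 4.

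The promoters of both members that fell, and that of Cdk4, which did not pass the test, are shown because the targeted gene encodes a factor that binds DNA at E-boxes. The RefSeq windows (build GRCm38.p6) cover 250 bases before to 50 after an annotated start, and 7 of the 9 members had at least 1, with 10 windows in all. Each runs 5′ to 3′ on the strand of its gene, and capitals mark the E-box CACGTG, the element that BMAL1 with CLOCK, and also MYC with MAX, can bind. Cdkn2c has 2 annotated starts (chr4:109666707-109667006 and chr4:109665323-109665622, minus strand), Cdkn2d 1 (chr9:21291160-21291459, minus strand) and Cdk4 1 (chr10:127063285-127063584, plus strand).
Cdkn2c, upstream start: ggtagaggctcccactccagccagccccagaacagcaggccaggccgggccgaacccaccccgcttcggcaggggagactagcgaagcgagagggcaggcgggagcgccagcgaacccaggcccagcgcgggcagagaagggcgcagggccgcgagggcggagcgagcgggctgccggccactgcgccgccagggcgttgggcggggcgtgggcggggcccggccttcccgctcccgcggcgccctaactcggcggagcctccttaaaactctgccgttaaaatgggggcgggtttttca
Cdkn2c, downstream start: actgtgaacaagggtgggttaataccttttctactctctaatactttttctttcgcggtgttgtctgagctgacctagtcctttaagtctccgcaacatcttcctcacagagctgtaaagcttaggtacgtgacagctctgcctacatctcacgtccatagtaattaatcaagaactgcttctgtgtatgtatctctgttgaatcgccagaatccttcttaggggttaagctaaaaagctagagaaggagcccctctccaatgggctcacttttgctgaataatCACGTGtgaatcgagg
Cdkn2d: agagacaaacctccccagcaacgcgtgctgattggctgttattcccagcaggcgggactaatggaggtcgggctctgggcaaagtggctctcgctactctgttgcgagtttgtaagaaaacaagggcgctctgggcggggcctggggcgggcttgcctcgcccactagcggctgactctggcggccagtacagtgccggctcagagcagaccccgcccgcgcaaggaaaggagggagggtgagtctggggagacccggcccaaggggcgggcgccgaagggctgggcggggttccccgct
Cdk4: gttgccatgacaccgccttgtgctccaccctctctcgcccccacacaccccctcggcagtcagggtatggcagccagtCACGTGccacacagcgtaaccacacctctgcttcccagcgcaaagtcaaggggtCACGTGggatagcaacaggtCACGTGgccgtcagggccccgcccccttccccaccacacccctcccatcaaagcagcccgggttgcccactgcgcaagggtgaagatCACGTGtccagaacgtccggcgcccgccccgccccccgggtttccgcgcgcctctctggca

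The Cdk4 window held the E-box 4 times, the most of the 10 windows of the members, beginning at positions -172, -118, -98 and -11 from the start. Of 32851 windows in the table, 7.15% held the E-box at least once and 0.0244%, or 8 windows, at least 4 times. The downstream Cdkn2c window held 1, beginning at position 35 after the start, and the upstream Cdkn2c and the Cdkn2d windows held none. Over the 10 windows of the members, 3 held an E-box, the third being that of Cdk6, which is not shown. The E2F words TTTCCCGC, TTTGGCGC, TTTCGCGC and TTTGCCGC, read on both strands, were in 1 of the 10 windows, the upstream one of Cdkn2a, and in 2.26% of all windows. The CHR word TTTGAA, an element of genes that act late in the cell cycle, was in 1 of the 10, that of Cdkn2b, and in 17.9% of all windows. The upstream Cdkn2c window was 73.3% G or C with 33 CpG pairs, and the downstream one 44.0% with 8. These matches describe letters and show no binding.

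Cdkn2c and Cdkn2d fell in KO-labelled libraries. Cdkn2c, which encodes the inhibitor p18INK4c, was at 9.01 and 11.4 CPM in KO-labelled libraries, against 35.7 and 38.8 CPM in Het-labelled ones. The counts were 296 and 364 in KO-labelled libraries, against 1384 and 1283 in Het-labelled ones, so both KO-labelled libraries lay well below both Het-labelled ones. The log2 fold change was -1.87 (SE 0.22, 95% interval -2.38 to -1.36, edgeR adjusted p = 0.0140). Cdkn2d, which encodes p19INK4d, was at 13.9 and 14.6 CPM in KO-labelled libraries, against 40.8 and 54.3 CPM in Het-labelled ones. Its groups did not overlap either, and the KO-labelled libraries were closer to each other than the Het-labelled ones. The log2 fold change was -1.74 (SE 0.21, 95% interval -2.24 to -1.23, edgeR adjusted p = 0.0159). Without Het replicate 2 both calls were lost, with log2 fold changes of -1.82 for Cdkn2c (edgeR adjusted p = 0.0855) and -1.53 for Cdkn2d (edgeR adjusted p = 0.0925). In these bulk libraries fewer cells that express a gene and less of its RNA per cell cannot be told apart.

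Neither of the other INK4 genes was called. Cdkn2b, which encodes p15INK4b and lies next to Cdkn2a on chromosome 4, was at 14.3 and 4.59 CPM in KO-labelled libraries, against 9.53 and 9.29 CPM in Het-labelled ones. The KO-labelled libraries thus lay on either side of the others, 1 above and 1 below both. The log2 fold change was 0.0040 (95% interval -1.19 to 1.20, edgeR adjusted p = 0.998), an interval that holds changes of more than 2-fold in either direction. It was -1.06 without KO replicate 1 and 0.60 without KO replicate 2. Cdkn2a, which encodes p16INK4a and, from another first exon, p19ARF, had 0 and 0 counts in KO-labelled libraries, against 9 and 2 in Het-labelled ones. A count of 3, the floor for a library at 0, equals 0.0913 and 0.0937 CPM in KO-labelled libraries, and the levels in Het-labelled ones were 0.232 and 0.0605 CPM. A difference in Cdkn2a was not detectable at this depth, and the counts do not separate its 2 products.

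Among the D-cyclins, Ccnd2 was the most abundant and none passed the threshold. Ccnd2, the main D-cyclin of mouse β-cells, was at 680 and 670 CPM in KO-labelled libraries, against 954 and 1125 CPM in Het-labelled ones. Its groups did not overlap, and the KO-labelled libraries nearly coincided. The log2 fold change was -0.62 (SE 0.14, 95% interval -0.96 to -0.29, edgeR adjusted p = 0.0771). It was past the threshold by DESeq2 (adjusted p = 0.000991) and in edgeR without a filter on low counts (adjusted p = 0.0254), while over the 13 alternatives other than a threshold of 0.1 its adjusted p ran up to 0.458. Ccnd3 was at 41.0 and 42.7 CPM in KO-labelled libraries, against 57.1 and 66.9 CPM in Het-labelled ones. These groups did not overlap either, with a log2 fold change of -0.57 (95% interval -0.96 to -0.18, edgeR adjusted p = 0.147). Ccnd1, the D-cyclin most often tied to growth factor signals, was at 130 and 210 CPM in KO-labelled libraries, against 191 and 238 CPM in Het-labelled ones. Here the groups overlapped, since KO replicate 2 lay between both Het-labelled libraries. The log2 fold change was -0.33 (95% interval -0.90 to 0.23, edgeR adjusted p = 0.555), and it was -0.053 without KO replicate 1 and -0.72 without KO replicate 2.

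Neither kinase gene passed the test. Cdk4 was at 141 and 150 CPM in KO-labelled libraries (140.54 and 149.54), against 156 and 150 CPM in Het-labelled ones (156.32 and 149.68). The groups did not overlap only by the gap between the second values of each. The log2 fold change was -0.077 (SE 0.14, 95% interval -0.40 to 0.24, edgeR adjusted p = 0.838), so the interval holds no change as large as that of Cdkn2c or Cdkn2d. Cdk6, which encodes the other kinase that pairs with D-cyclins, had 8 and 15 counts in KO-labelled libraries, against 14 and 25 in Het-labelled ones. At 0.244 and 0.468 CPM in KO-labelled libraries, against 0.362 and 0.757 CPM in Het-labelled ones, it was near the limit of detection and its groups overlapped. Its log2 fold change of -0.64 had a 95% interval of -3.04 to 1.75 (edgeR adjusted p = 0.817).

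**Figure D2:**
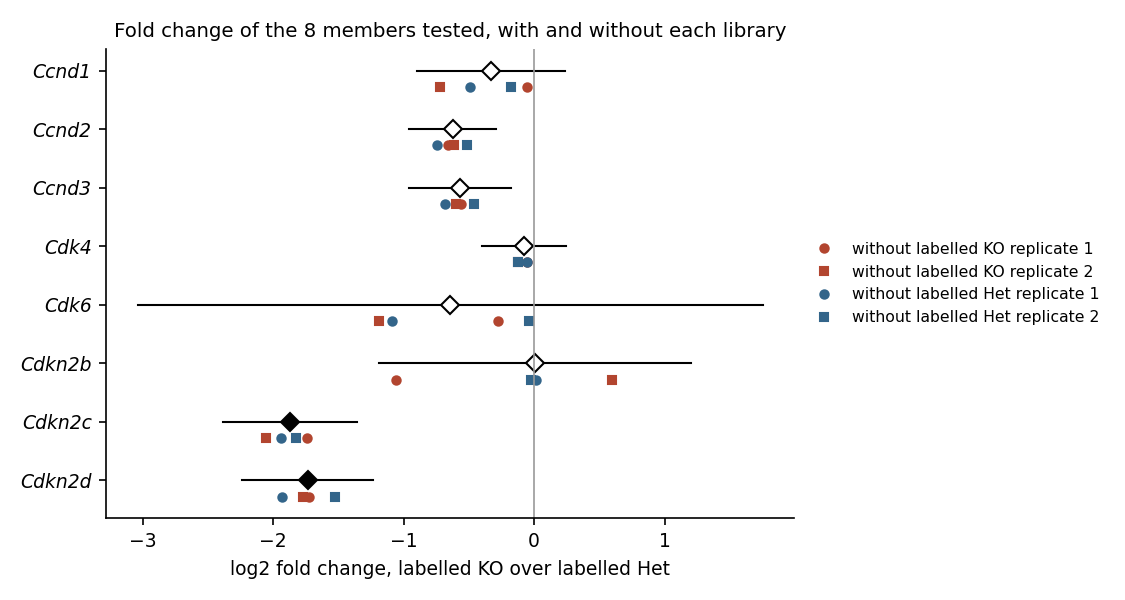
Log2 fold change of the 8 members tested, labelled KO over labelled heterozygous (Het), as diamonds with 95% intervals, filled where the edgeR adjusted p is under 0.05; small symbols give the value without 1 library. Cdkn2c at -1.87 and Cdkn2d at -1.74 keep values from -2.05 to -1.53 in these refits, whereas Cdkn2b runs from -1.06 to 0.60.

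Exons of 3 members overlap a protein-coding gene on the other strand, and the kit does not mark strand. Tspan31 overlaps 31.2% of the exon bases of Cdk4, and it was at 119 and 132 CPM in KO-labelled libraries, against 146 and 149 CPM in Het-labelled ones (log2 fold change -0.24, edgeR adjusted p = 0.465). Oraov1 overlaps 21.9% of those of Ccnd1 (log2 fold change -0.14) and Bysl 14.8% of those of Ccnd3 (log2 fold change -0.32). None of the 3 neighbours passed the threshold. How far the overlaps affect the values of Cdk4, Ccnd1 and Ccnd3 cannot be told, since the way reads were counted is not given. Cdkn2b, Cdkn2c and Cdkn2d had no such overlap in the annotation.

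To compare levels between genes, CPM were divided by the merged exon length of each gene in kilobases. In the KO-labelled libraries the order was Ccnd2 at 100.6 ± 1.02 CPM per kb, Cdk4 at 70.6 ± 3.10, Ccnd1 at 45.5 ± 15.2, Ccnd3 at 17.1 ± 0.510, Cdkn2d at 9.68 ± 0.321, Cdkn2b at 6.79 ± 4.93 and Cdkn2c at 3.79 ± 0.620, with Cdk6 at 0.0309 ± 0.0138 and Cdkn2a at 0. In this order Cdkn2b overlapped both of its neighbours, Cdkn2d and Cdkn2c. In Het-labelled libraries it was Ccnd2 at 154.9 ± 18.0 CPM per kb, Cdk4 at 74.5 ± 2.29, Ccnd1 at 57.3 ± 8.91, Cdkn2d at 32.3 ± 6.48, Ccnd3 at 25.3 ± 2.83, Cdkn2c at 13.9 ± 0.816 and Cdkn2b at 6.77 ± 0.120, and Cdkn2a at 0.125 ± 0.104 overlapped Cdk6 at 0.0485 ± 0.0242. Ccnd2, Cdk4 and Ccnd1 led under both labels. Cdkn2d stood below Ccnd3 in KO-labelled libraries and above it in Het-labelled ones. Cdkn2c stood below Cdkn2b on average in KO-labelled libraries and above it in Het-labelled ones. The order was the same with the length of the longest transcript in place of merged exons.

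The share of Ccnd2 in the D-cyclin RNA overlapped between the labels. Per length, Ccnd2 made up 66.3% and 57.5% of the D-cyclin RNA in KO-labelled libraries and 65.7% and 64.8% in Het-labelled ones, and Ccnd3 10.1% to 11.0% in all 4. Summed over the family, the D-cyclins were at 153 and 174 CPM per kb in KO-labelled libraries, against 216 and 259 CPM per kb in Het-labelled ones. The INK4 genes summed to 23.1 and 17.4 CPM per kb in KO-labelled libraries, against 48.0 and 58.0 CPM per kb in Het-labelled ones. Cdkn2b made up 44.5% and 18.9% of that in KO-labelled libraries and 14.3% and 11.5% in Het-labelled ones, so that KO replicate 1 stood apart. Set against the kinases, the INK4 genes were at 0.337 and 0.239 of the level of Cdk4 and Cdk6 together in KO-labelled libraries and at 0.631 and 0.795 in Het-labelled ones. The D-cyclins were at 6.62 and 9.95 times the INK4 level in KO-labelled libraries and at 4.51 and 4.46 times in Het-labelled ones. Against the kinases, the D-cyclins were at 2.23 and 2.38 times the level in KO-labelled libraries and at 2.84 and 3.54 times in Het-labelled ones. None of these ratios overlapped between the labels. Of single genes tested, 23.8% were lower and 25.3% higher without overlap. The ratios with INK4 genes include Cdkn2c and Cdkn2d, the members that fell. All the ratios are given with no test, since an exact 2-sided permutation test of 2 against 2 libraries cannot go below p = 0.333.

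**Figure D3:**
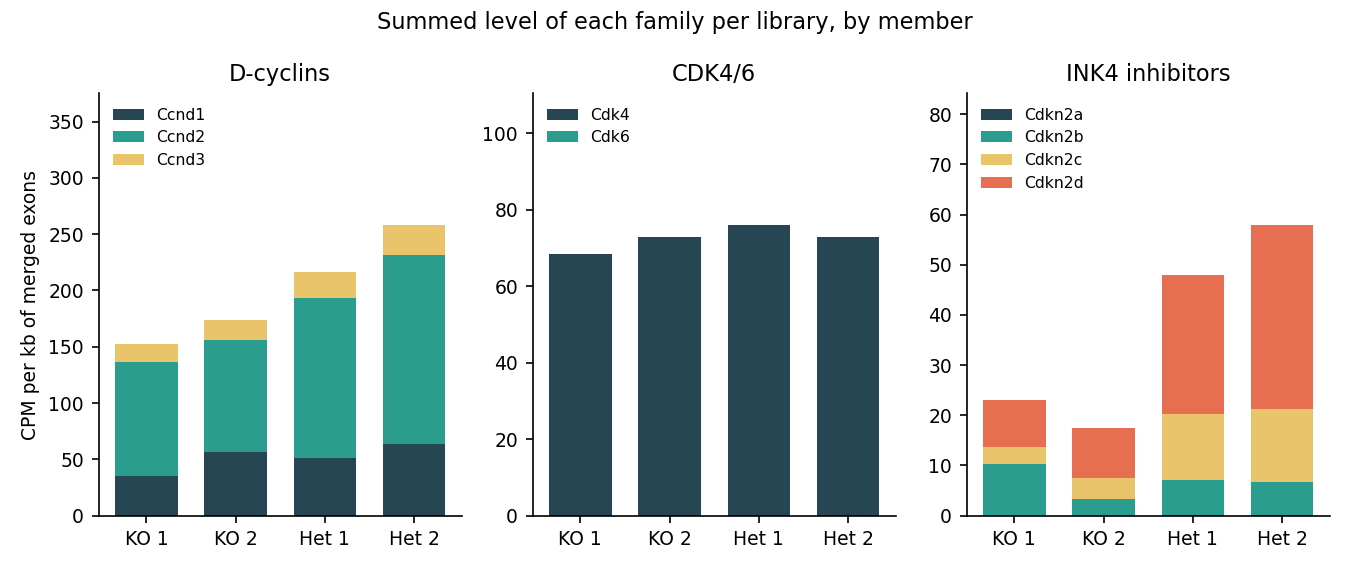
Stacked bars of CPM per kb of merged exons in each library, labelled KO left of heterozygous (Het), for the D-cyclins, the 2 kinases and the INK4 genes, each panel with its own axis from 0. The INK4 bars reach 23.1 and 17.4 in KO-labelled libraries and 48.0 and 58.0 in Het-labelled ones, while the kinase bars lie between 68.5 and 76.2.

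The genes whose profile over the 4 libraries was nearest to each member that fell were found among 13570 other named genes tested, by the root mean square difference of log2 CPM centred on each gene's mean. Nearest to Cdkn2c were Kif2c, a kinesin that takes microtubules apart in mitosis, at 0.0135, and Trim59 at 0.0373. Kif2c was at 4.87 and 6.25 CPM in KO-labelled libraries, against 20.0 and 21.4 CPM in Het-labelled ones. Nearest to Cdkn2d were Fam210b at 0.0963, Bub1b, a kinase-like protein of the spindle checkpoint, at 0.130 and Cep72, a centrosome protein, at 0.131. Bub1b was at 7.98 and 10.1 CPM in KO-labelled libraries, against 29.8 and 35.2 CPM in Het-labelled ones. Cdkn2d ranked 23rd in nearness to Cdkn2c and Cdkn2c 13th to Cdkn2d, at a difference of 0.159, and Ccnd2, the next member for both, ranked 814th and 649th. With 4 libraries these ranks describe the profiles and carry no test.

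Downstream of the switch, genes induced by E2F fell in part. Of 21 listed genes of the transition into DNA synthesis, 11 fell, 0 rose and 10 did not pass, and the median log2 fold change was -1.27. Mcm3, a subunit of the replicative helicase, was at 8.62 and 9.18 CPM in KO-labelled libraries, against 32.5 and 29.1 CPM in Het-labelled ones (log2 fold change -1.79, edgeR adjusted p = 0.0154). Cdc6, which loads that helicase, had a log2 fold change of -2.56, Mcm2, another of its subunits, -1.27, and Rrm2, which makes deoxyribonucleotides, -1.50 (edgeR adjusted p = 0.0175 for each). Of 13 pocket protein, E2F and DP genes, 2 fell and 0 rose, with a median of -0.38. They were E2f8, which encodes a repressor E2F, at 4.60 and 5.34 CPM in KO-labelled libraries, against 13.9 and 15.3 CPM in Het-labelled ones (log2 fold change -1.56, edgeR adjusted p = 0.0470), and E2f1, which encodes an activator, at 17.7 and 13.3 CPM in KO-labelled libraries, against 32.0 and 42.2 CPM in Het-labelled ones (-1.26, edgeR adjusted p = 0.0481). Rb1 itself, named after its values were seen, was at 24.9 ± 4.44 CPM in KO-labelled libraries and 21.8 ± 0.415 CPM in Het-labelled ones and did not pass. Without Het replicate 1, 4 of the 21 and 0 of the 13 fell, and without Het replicate 2, 0 and 0. Without a filter and by DESeq2, 4 of the 13 fell, and by limma-voom 1.

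Markers of dividing cells differed in the same libraries. Of 10 listed, 6 fell, 0 rose and 4 did not pass, with a median log2 fold change of -2.40. The 4 had edgeR adjusted p from 0.0522 to 0.0683. By DESeq2 all 10 were lower, where 562 of 14816 genes were lower over all. Mki67, present in cycling cells, was at 20.2 and 31.7 CPM in KO-labelled libraries, against 98.5 and 156 CPM in Het-labelled ones (log2 fold change -2.29, edgeR adjusted p = 0.0175). Aurkb, which encodes a kinase of mitosis, had a log2 fold change of -3.38, Birc5, its partner in the chromosomal passenger complex, -2.41, and Top2a, a topoisomerase gene, -2.44. Relative to Mki67, Cdkn2c was at a CPM ratio of 0.446 and 0.358 in KO-labelled libraries and of 0.363 and 0.249 in Het-labelled ones, not scaled for length, and these ranges overlap. Cdkn2d was at 0.690 and 0.461 times the Mki67 CPM in KO-labelled libraries and at 0.415 and 0.348 times in Het-labelled ones, with no overlap. Without Het replicate 2, 0 of the 10 markers passed, while all 10 did without KO replicate 1 and again without KO replicate 2.

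Cyclin E, CDK2 and the CIP/KIP inhibitors, which act after or beside CDK4, held 1 call. Of 12 listed genes 1 rose, 0 fell and 11 did not pass, and the median log2 fold change was -0.60. The level was lower for 8 of the 12 and higher for 4, and 6 had an unadjusted p under 0.05. Over all genes tested, 2471 of 14649 had an unadjusted p under 0.05. By DESeq2, 2 were lower and 2 higher, against 562 and 624 of 14816 over all genes. Ccne1 (log2 fold change -1.03), Ccne2 (-0.90) and Cdk2 (-0.95), named after their values were seen, did not pass (edgeR adjusted p = 0.146, 0.214 and 0.243). Ccnh, the cyclin of the kinase that activates CDKs, was at 94.1 and 81.7 CPM in KO-labelled libraries, against 45.96 and 45.92 CPM in Het-labelled ones (log2 fold change 0.94, edgeR adjusted p = 0.0310). Its call was lost without KO replicate 1, without Het replicate 1 and without Het replicate 2, and 2 of the 12 fell without KO replicate 2. Cdkn1a, which encodes p21 and was named after its values were seen, was at 98.2 ± 9.54 CPM in KO-labelled libraries and 51.6 ± 12.1 CPM in Het-labelled ones and did not pass (log2 fold change 0.93, edgeR adjusted p = 0.0663).

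Upstream, 20 listed receptors and factors that feed into D-cyclins in β-cells split. Of 19 tested, 2 fell, 1 rose and 16 did not pass, and the median log2 fold change was -0.042. Foxm1, which encodes a transcription factor of the cell cycle, was at 7.73 and 11.8 CPM in KO-labelled libraries, against 45.1 and 50.6 CPM in Het-labelled ones (log2 fold change -2.29, edgeR adjusted p = 0.0134). Prlr, the prolactin receptor that drives β-cell growth in pregnancy, was at 390 and 383 CPM in KO-labelled libraries, against 618 and 697 CPM in Het-labelled ones (log2 fold change -0.77, edgeR adjusted p = 0.0386). Pdgfra, also one of the fibroblast markers above, had 37 and 170 counts in KO-labelled libraries, against 0 and 0 in Het-labelled ones, and rose (edgeR adjusted p = 0.0464). Without Het replicate 1, 1 fell and 0 rose, without Het replicate 2, 0 and 0, and without KO replicate 2, 4 fell.

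Genes that act on the members' chromatin or protein had no call. Of 14 Polycomb and menin/MLL genes, which set or remove silencing at the INK4 loci, 0 passed by edgeR, with a median log2 fold change of -0.071. By edgeR 2 of the 14 had an unadjusted p under 0.05, against 2471 of 14649 over all genes tested. By DESeq2 1 passed, lower, where 562 of 14816 genes were lower over all. Without KO replicate 2, 1 of them fell. Ezh2, the Polycomb methyltransferase, was at 5.45 and 8.18 CPM in KO-labelled libraries, against 18.6 and 18.6 CPM in Het-labelled ones (log2 fold change -1.45, edgeR adjusted p = 0.0601). It was followed by Cbx2, another Polycomb gene (-0.79, edgeR adjusted p = 0.292). Of 10 genes of cyclin D turnover and CDK4 folding, 0 passed by edgeR or DESeq2 and 0 had an unadjusted p under 0.05, with a median of -0.10. The smallest p-values were those of Hsp90ab1, a chaperone of kinases (log2 fold change -0.28, edgeR adjusted p = 0.405), and Fzr1, an activator of the ubiquitin ligase APC/C (-0.23, edgeR adjusted p = 0.447).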

How the data were processed

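Per the labels' protocols, an RNeasy Plus Micro kit gave the RNA and SMART-Seq v4 chemistry for low input gave libraries that carry no strand mark. STAR, edgeR and mm10 stand in the submitters' processing notes, without versions or roles; how reads were counted, and on which annotation, is not given in the sources used. The authors deposited whole-number read counts per gene symbol, not normalized, which all main tests used. They also deposited scaled values, a signal equal to the counts times 1 constant per library; whole reads were recovered from 100% of these values at a tolerance of 0.01.

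The fit was made in edgeR 4.0.16 (R 4.3.3) with glmQLFit and glmQLFTest, after filterByExpr at a minimum count of 10 and a minimum total of 15 and TMM scaling. Group was its one term, which left 2 residual degrees of freedom. The procedure was tested on simulated data, where the share of unchanged genes among its calls was above the threshold and many of the smaller changes were missed. Replicates of a label differed by far more than sampling noise (chi-square per degree of freedom 63.9 for KO and 42.9 for heterozygous). Reads carry no molecular identifiers, so a floor covers counting error only.

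The members and gene lists were chosen with earlier results of these data known. The text names all members, Arntl, per pathway list up to 4 genes past the threshold with the smallest adjusted p or, with none past it, the 2 of smallest p, and the 3 nearest profiles of each member that passed, of which 1 is not reported here; marker lists are given by counts and sums, with the gene that sets a count or sum. Pathway genes named after their values were seen are marked so in the text. Listed symbols missing from the table were matched through RefSeq synonyms (2 found, as Mll1 and Emr1). Lengths and exon overlaps are from GENCODE M21 (GRCm38, the build mm10 names). Alternatives were other scalings, no filter, DESeq2 1.42.0, limma 3.58.1 (voom, and trend on log2 of the deposited scaled values plus 1), the replicate number as a block, dropping each library in turn, a threshold of 0.1 and, added after seeing the data, the recovered reads, a second length and family sums without each library.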

Additional observations from a re-analysis of the deposited data

How the results depend on the processing

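Cdkn2c and Cdkn2d kept their direction in all 13 alternatives other than a threshold of 0.1. They passed in each of these that kept all 4 libraries, and both calls were lost without Het replicate 2. Among the 13, the reads recovered from the deposited values return the counts of the main fit, so their outcome was fixed in advance. Over the 13, Cdkn2c ran from -2.05 to -1.74 and Cdkn2d from -1.93 to -1.53 on the log2 scale. The number of members that fell, 2, ran from 0 to 2 when 1 library was left out, and 0 rose in any setting. Over all genes, 196 fell and 176 rose. The counts were 378 and 430 without a filter, 562 and 624 by DESeq2, and 350 and 378 at a threshold of 0.1. Leaving out 1 library gave 8 to 422 lower and 17 to 404 higher, the lowest of both without Het replicate 2; the cause was not tested. Reads recovered from the deposited values gave 196 and 176. The labels do not say whether same-numbered libraries belong together. Their deviations correlated at -0.019, which with 2 libraries per label cannot settle whether they are paired. The fit with the replicate block gave 278 lower and 313 higher genes and the same 2 members. The sign of Cdkn2b, near 0, turned to -0.00029 with RLE factors, -0.0023 without a filter, -0.0025 by DESeq2, -0.21 by limma-voom, -0.17 by limma-trend, -0.21 with the block and -0.022 without Het replicate 2, and leaving out 1 library gave -1.06 to 0.60. Summed CPM per family, not scaled for length, had log2 ratios of -0.57 for the D-cyclins, -0.079 for the kinases and -1.48 for the INK4 genes. With library sizes only they were -0.52, -0.033 and -1.43. Leaving out 1 library gave -0.69 to -0.44 for the D-cyclins, -0.13 to -0.034 for the kinases and -1.63 to -1.34 for the INK4 genes. With 2 libraries per label these shifts follow from the replicate spread itself. The deposited scaled values carry the same scaling, so neither they nor leaving out 1 library tests the sums. Of the list counts, 39 values moved by over 1.5 times or changed to or from 0, and those without 1 library stand beside their lists. At 2 libraries per label and few reads, Cdk6 and Cdkn2a are limited by depth.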
